A study of Mus musculus with 10 samples.

Results

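The endoplasmic reticulum (ER) stress and folding genes described here are *Atf4*, *Ddit3*, *Creb3l2*, *Calr*, *Canx*, *Creld2*, *Dnajb9*, *Dnajb11*, *Dnajc3* and *Edem1*. They were chosen by name, and these 10 genes are among the 29183 listed for both the *Grem1*-lineage and the *Lepr*-lineage cells of the study. Their levels were read by plate, by lineage, between 2 groups of *Grem1*-lineage cells, and against the share of each cell's transcripts given to the cartilage matrix genes *Col2a1* and *Acan*.

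Secreted proteins fold in the ER, and chondrocytes, which release large amounts of collagen and proteoglycan, depend on that capacity. When unfolded proteins build up, sensors in the ER membrane start the unfolded protein response. It lowers translation, raises transcription factors such as ATF4 (encoded by *Atf4*) and CHOP (*Ddit3*), and adds chaperones and degradation factors. CREB3L2 (*Creb3l2*), another ER-bound transcription factor, is known for promoting the secretion of matrix by developing chondrocytes. Calreticulin (*Calr*) and calnexin (*Canx*) hold newly made glycoproteins while they fold, and CRELD2 is a resident ER protein induced by stress. DNAJB9, DNAJB11 and DNAJC3 are co-chaperones of BiP, the main chaperone of the ER, and EDEM1 directs misfolded glycoproteins to degradation.

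The study sorted single TdTomato-positive cells from C57BL/6 mice into 96-well plates and counted unique molecular identifiers (UMIs), so that PCR copies of a transcript counted once. *Grem1*-lineage cells came from *Grem1-creERT; R26-LSL-TdTomato* mice given tamoxifen from 5 to 6 weeks of age, for 2 weeks by the labels, whose articular cartilage (AC) and growth plate (GP) of the hind limb were excised and sorted separately. *Lepr*-lineage cells came from the whole bones of age-paired *Lepr-cre; R26-LSL-TdTomato* mice, whose Cre is constitutive, and were gated as CD45-, Ter119- and CD31-. Both lineages carry the same reporter, and cells of several mice were pooled. Thus *Grem1*-lineage cells are those labelled in a short window and their progeny, while *Lepr*-lineage cells are all that descend from a cell that ever expressed the Cre. The labels give 8 *Grem1*-lineage plates (numbered 1, 2 and 4 to 9) and 2 *Lepr*-lineage plates, and do not say which plates or cells came from AC or GP. The authors' methods state that cells were assigned to plates at random. Lineage, source, gate, digestion enzyme and plate set differ together between the lineages and cannot be told apart.

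Wells below 350 detected genes were dropped, so that 684 of 768 *Grem1*-lineage and 160 of 162 *Lepr*-lineage wells entered. Detected genes were counted over all genes listed for a lineage, 29183 for *Grem1*-lineage and 50508 for *Lepr*-lineage cells. The cut was thus not equal: over the shared genes, 77 *Lepr*-lineage wells reached 350. The plates held 133289 to 179071 UMIs for *Grem1*-lineage cells and 64310 and 59981 UMIs over the shared genes for *Lepr*-lineage cells, with a median of 1472.5 and 505 UMIs per cell. The 84 *Grem1*-lineage wells left out held 146 UMIs of the 10 genes. The plates use 96 well barcodes, of which 70 occur on every plate. The *Lepr*-lineage plates carried their expected stromal markers, all 6 of which (*Cxcl12*, *Adipoq*, *Esm1*, *Ebf3*, *Ebf1* and *Angpt1*) were highest there. They also carried blood cell transcripts despite the gate: 11 blood markers summed to 23002 and 16815 CPM (UMIs scaled to a library of 1000000), against 0 to 6750 CPM over the sums of *Grem1*-lineage cells, and 9 of the 11 were highest in *Lepr*-lineage cells with none at 0. The *Lepr*-lineage cell with most UMIs, on plate 2, had *Mpo* and *Elane*, enzymes of neutrophil granules, as its leading genes and held 44 of the 394 *Lepr*-lineage UMIs of the 10 genes.

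Sequence at the promoters of these genes was examined because the response acts through known DNA elements. In the RefSeq promoter sequences of GRCm38.p6, which run from 250 bases before to 50 bases after each start and were found for 10 of the 10 genes, 4 members held the ER stress response element (ERSE), which is CCAAT, any 9 bases and CCACG, on either strand: *Calr*, *Canx*, *Creld2* and *Dnajc3*. The same letters occurred in 0.137% of 27025 genes. The stretches around these matches are shown because they place the element next to the genes whose levels follow, with its fixed letters in capitals.
*Calr*, chr8:84847067-84847101, minus strand: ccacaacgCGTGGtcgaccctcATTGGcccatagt
*Canx*, chr11:50325792-50325826, minus strand: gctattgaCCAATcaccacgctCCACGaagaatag
*Creld2*, chr15:88819512-88819546, plus strand: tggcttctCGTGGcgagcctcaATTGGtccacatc
*Dnajc3*, chr14:118937819-118937853, plus strand: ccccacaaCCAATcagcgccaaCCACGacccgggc
In *Calr* and *Creld2* the element lies on the strand opposite to the gene, so its letters appear as their reverse complement. The shorter ERSE-II, which is ATTGG, any base and CCACG, was found in *Dnajb11* as ATTGGCCCACG at chr16:22857852-22857862 on the plus strand, from base 8 to base 18 after the start, and in 0.0444% of genes. No member held TGACGTGG (UPR element, 0.714% of genes) or TGATGNAA (amino acid response element, 4.51% of genes) in this window, and no match overlapped another. A match of letters is a description and does not show that a factor binds there.

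The first comparison asked how the members differ between the lineages. Of the 10, *Creb3l2*, *Ddit3*, *Dnajb9*, *Dnajc3* and *Atf4* were lower in *Lepr*-lineage plates, and none was higher (edgeR's quasi-likelihood test on UMI sums per plate, Benjamini-Hochberg adjusted over all genes, threshold 0.05). The glycoprotein chaperones *Calr* and *Canx*, and *Creld2*, *Dnajb11* and *Edem1*, did not pass the test. *Creb3l2* and *Dnajb9* passed the filter on low counts through *Grem1*-lineage plates alone, so they could only be called lower. *Ddit3* also needed *Grem1*-lineage plates to pass that filter. Of all 2944 genes tested, 29.0% passed, 16.8% as lower in *Lepr*-lineage cells and 12.2% as higher. The median log2 fold change was -0.71 over the 10 members and -0.11 over all genes tested. Levels are CPM after TMM scaling, which sets the typical gene equal between libraries. With totals alone in place of TMM, an alternative added after the data were seen, the median gene moved by 0.56 on the log2 scale, calls went from 358 higher and 495 lower genes to 773 and 288, and 1 member passed, *Creb3l2* (log2 fold change -1.59, adjusted p = 0.0154). In sums over cells, fewer cells with a transcript and fewer transcripts per cell cannot be told apart.

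**Figure D1:**
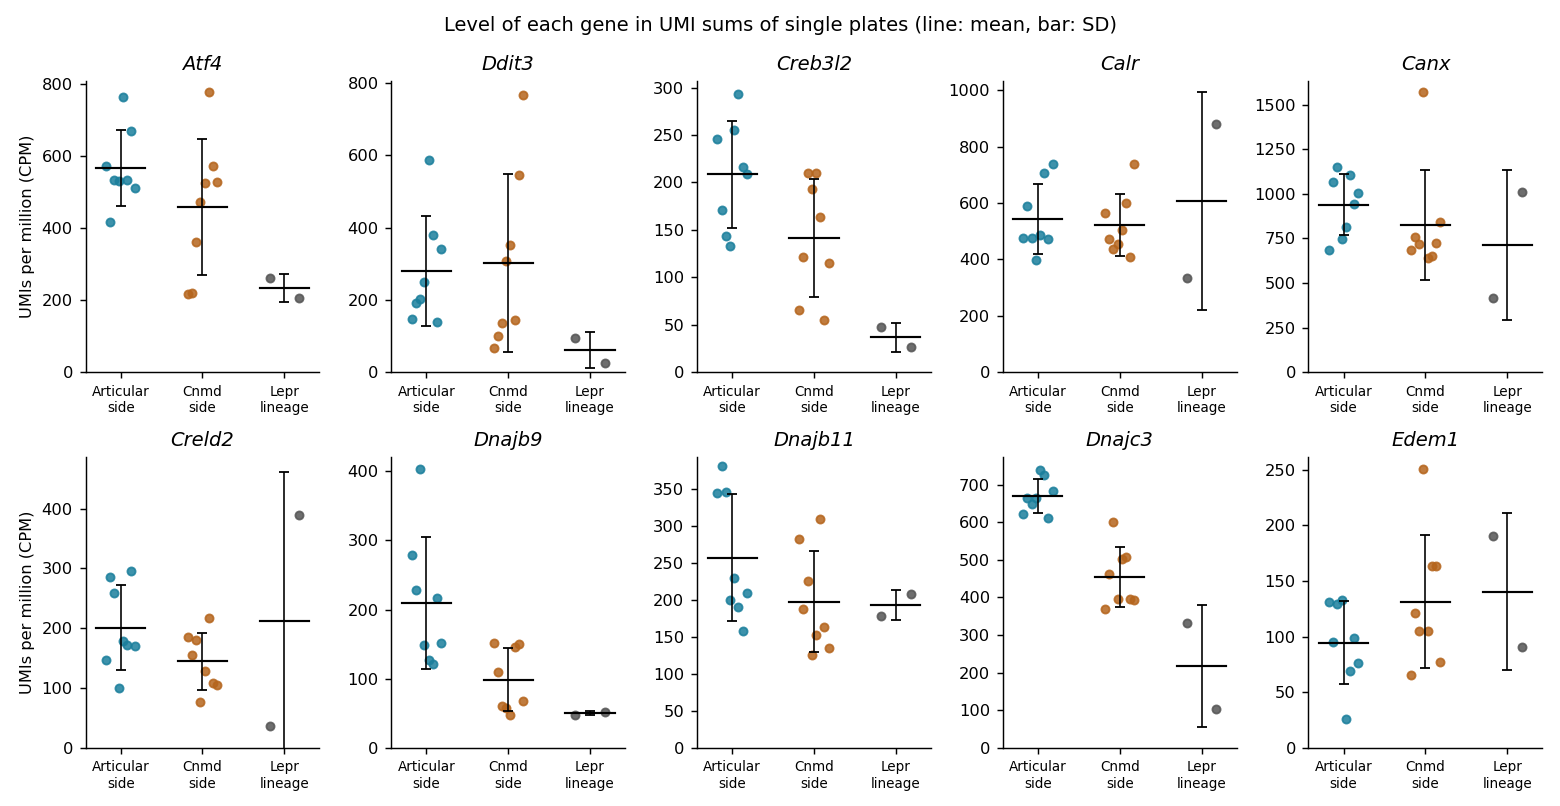
Level of each gene in CPM (vertical axes, each from 0) in the UMI sums of single plates, for articular-side and Cnmd-side *Grem1*-lineage cells (8 plates each) and *Lepr*-lineage cells (2 plates). Points are plates, lines are means and bars are SD (cut at 0). For *Dnajc3* the 8 articular-side points lie at 609.9 to 739.9 CPM and the Cnmd-side points at 369.5 to 600.4 CPM, while for *Calr*, *Canx* and *Creld2* the 2 *Lepr*-lineage points lie far apart.

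Among the transcription factors, *Creb3l2* (mm10 chr6:37327255-37442146, minus strand) was at 124 CPM on the lowest, 163 at the median and 233 on the highest of the 8 *Grem1*-lineage plates, and at 45.8 and 24.2 CPM on the *Lepr*-lineage plates. Every *Grem1*-lineage plate was thus above both *Lepr*-lineage plates, with a log2 fold change of -2.15 ± 0.46 (SE, adjusted p = 0.00248, edgeR). Only 6 *Creb3l2* UMIs were counted in the 160 *Lepr*-lineage cells. *Atf4* (chr15:80255184-80257541, plus strand) ranged from 300.5 to 663 CPM around a median of 521 in *Grem1*-lineage plates and was at 252 and 193 CPM in *Lepr*-lineage plates (-1.08 ± 0.33, adjusted p = 0.0212, edgeR). *Ddit3* (chr10:127290774-127296288, plus strand) spread over a wide range of *Grem1*-lineage plates, from 101 to 638 CPM with a median of 282, against 91.6 and 24.2 CPM (-2.26 ± 0.75, adjusted p = 0.0322, edgeR). The lowest *Grem1*-lineage plate for *Ddit3* was therefore close to the higher *Lepr*-lineage plate, and the *Lepr*-lineage values rest on 8 and 2 UMIs. Exons of *Ddit3* overlap *Mars* and *Gm4189* on the opposite strand in the GENCODE annotation, so that reads of these genes cannot be told apart unless strand was counted.

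For the co-chaperones, *Dnajc3* (chr14:118937976-118981697, plus strand) was even across *Grem1*-lineage plates, at 482 to 632 CPM with a median of 529.8, and was at 321 and 96.6 CPM in *Lepr*-lineage plates (-1.28 ± 0.34, adjusted p = 0.00916, edgeR). *Dnajb9* (chr12:44205559-44210326, minus strand) was at 72.2 to 238 CPM around a median of 146 and at 45.8 and 48.3 CPM, the latter from 4 UMIs on each plate (-1.54 ± 0.56, adjusted p = 0.0491, edgeR). Its call was the least secure of the 5, since it held in 8 of 23 alternatives. For *Dnajb11* the values were 157 to 315 CPM against 172 and 193 CPM, within the *Grem1*-lineage range. The plates of the lineages did not overlap for the 5 members that passed the test, and for none of the other 5. Over all tested genes, 37.7% did not overlap.

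The 2 *Lepr*-lineage plates differed from each other for several folding genes. *Creld2* was at 34.3 CPM on *Lepr*-lineage plate 1 and 362 CPM on plate 2, below and above the 87.9 to 223 CPM of the *Grem1*-lineage plates. *Calr* was at 321 and 821 CPM, again on either side of the *Grem1*-lineage plates (445 to 756 CPM). *Canx* was at 401 CPM, below the *Grem1*-lineage plates (698 to 1306 CPM), and at 942 CPM, among them. In the other direction, *Dnajc3*, *Ddit3* and *Edem1* were higher on plate 1, the last at 183 and 84.5 CPM against 78.2 to 214 CPM in *Grem1*-lineage plates. Without plate 2 the log2 fold change of *Creld2* was -2.22 (adjusted p = 0.0434, edgeR), and that of *Calr* was -0.71, while without plate 1 they were 1.10 and 0.60. Without plate 2, 2 of the 10 members passed the test, *Creb3l2* and *Creld2*, and the calls of *Atf4*, *Ddit3*, *Dnajb9* and *Dnajc3* were lost, with *Dnajc3* at -0.73 (adjusted p = 0.132, edgeR). Without plate 1, 3 members passed, *Creb3l2*, *Atf4* and *Dnajc3*, the last at -2.49. The cell led by *Mpo* and *Elane* held 19 of the 113 *Canx* UMIs and 7 of the 33 *Creld2* UMIs of the lineage and no UMI of *Creb3l2*, *Ddit3* or *Dnajc3*. Without it, 4 members passed, *Dnajb9* missing the threshold (adjusted p = 0.064, edgeR). A further alternative left out each cell with over 1% of its UMIs in blood or osteoblast markers, which kept 20 *Lepr*-lineage cells. There *Atf4* and *Dnajc3* passed, but on few UMIs: 3 of *Atf4* (log2 fold change -2.40) and 2 of *Dnajc3* (-3.10) in these cells. *Creb3l2* passed too, but had 0 UMIs in these cells. It thus passed the filter on low counts through *Grem1*-lineage plates alone and could only be called lower. In the same direction as *Atf4* and *Ddit3*, 9 early response genes such as *Fos* and *Egr1*, which also rise when tissue is digested, summed to 15941 to 41963 CPM in *Grem1*-lineage sums and 4888 and 3705 CPM in *Lepr*-lineage plates, with *Egr2* at 0 in the latter. Their part in the result was not tested.

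**Figure D2:**
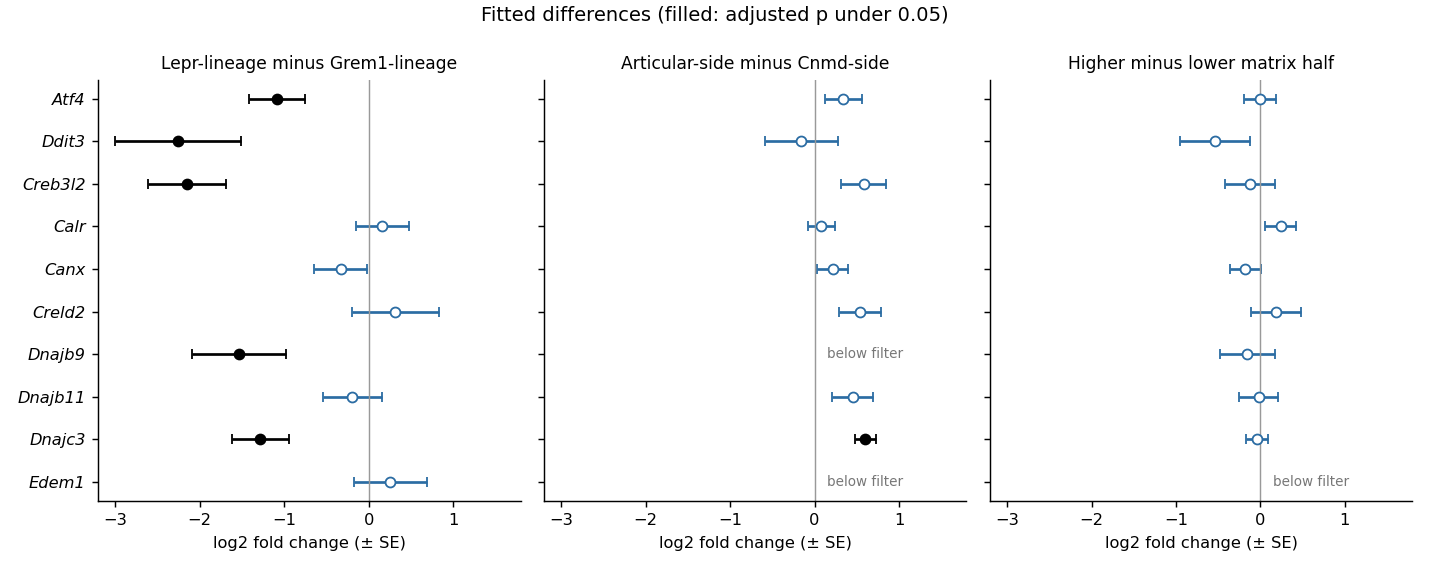
Log2 fold change (horizontal axis, ± SE) of each gene in the comparisons of lineages, of *Grem1*-lineage cell groups and of cells with a higher or lower matrix share. Filled points have an adjusted p under 0.05 (edgeR): 5 genes in the first panel, *Dnajc3* alone in the second and none in the third, and genes below the filter on low counts are marked.

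The second comparison stayed within the *Grem1*-lineage. Cells with more UMIs of *Clu*, *Cilp* and *1500015O10Rik* together than of *Cnmd* were called articular-side cells (414), and the others Cnmd-side cells (270). The split used these 4 genes alone, which were left out of all totals and tests, and 25 cells lay within 2 UMIs of the cut. Of 8 articular cartilage markers outside the split, 7 were higher in articular-side cells. For growth plate markers, 6 of 6 were higher in Cnmd-side cells. These lists were chosen with earlier results of these data known, so they describe the groups and do not test their names. Of 9 general cartilage markers, 3 were higher and 6 lower in articular-side cells. The hypertrophic marker *Col10a1* was higher there, at a mean of 6769 against 1350 CPM. Articular-side cells were shallower, with a median of 1217 UMIs against 2218.5, and gave 1.43% of their UMIs to *Col2a1* and *Acan* at the median, against 7.57%.

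*Dnajc3*, the co-chaperone that also restrains the kinase PERK, was the member that passed the test, and it was higher in articular-side cells. Its levels were 595 to 727 CPM with a median of 659 in articular-side sums and 331 to 560.3 CPM with a median of 412 in Cnmd-side sums (log2 fold change 0.60 ± 0.12, adjusted p = 0.000735, edgeR). It was higher in articular-side cells on 8 of 8 plates, and the groups did not overlap. Of the 8 members that passed the filter on low counts, 1 was called, against 41.5% of the 1065 genes tested (213 higher and 229 lower), and 12.2% of these genes had groups without overlap. With totals alone in place of TMM the median gene moved by -0.33 on the log2 scale, calls turned to 123 higher and 390 lower genes, and *Dnajc3* did not pass (0.26, adjusted p = 0.16, edgeR). It did not pass either without the filter on low counts (0.45, adjusted p = 0.281, over 12510 genes).

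*Dnajb9* and *Edem1* were below the filter. *Dnajb9* was at 119 to 388 CPM in articular-side and 45.2 to 145 CPM in Cnmd-side sums, and was higher in articular-side cells on 7 of 8 plates. Its counts were 97 UMIs in articular-side and 64 in Cnmd-side cells. It was tested in 5 alternatives only and passed in each, among them that without the filter (1.02 ± 0.30, adjusted p = 0.0172, edgeR). Where the filter was on, its own counts, higher on the articular side, decided whether it was tested. The 5 passes are therefore not independent support. *Edem1* was at 25.1 to 133 CPM and 58.4 to 233 CPM, and was higher in articular-side cells on 3 of 8 plates (-0.54 ± 0.33, adjusted p = 0.437, edgeR without the filter). With every cell drawn down to 796 UMIs (60 articular-side and 8 Cnmd-side cells were shallower and dropped), *Dnajc3* was detected in 33.3% of articular-side cells (95% exact Clopper-Pearson interval 28.4 to 38.5) and 27.1% of Cnmd-side cells (21.8 to 32.9). Without this step the shares were 46.6% and 54.8%, in the opposite order, as the Cnmd-side cells were deeper. *Edem1* was detected in 5.65% (3.48 to 8.59) and 11.5% (7.86 to 15.9) of these cells. These intervals cover counting error within the cells alone.

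The other 6 tested members did not pass. *Creb3l2* (206 ± 56.0 CPM against 134 ± 58.9, SD, n = 8 plates) and *Creld2* (198 ± 67.1 against 137 ± 43.8) were higher in articular-side cells on 6 of 8 plates each, with log2 fold changes of 0.58 ± 0.27 and 0.53 ± 0.25 and adjusted p of 0.0915 and 0.0931 (edgeR). *Dnajb11* had 254 ± 83.8 against 186 ± 62.2 CPM and *Atf4* 561 ± 102 against 438 ± 186 CPM, with 6 and 7 of 8 plates higher on the articular side. For the chaperones of the glycoprotein cycle, *Calr* had 538 ± 127 and 495 ± 113 CPM (0.08 ± 0.16) and was higher in articular-side cells on 5 of 8 plates, and *Canx* had 929 ± 163 and 780 ± 284 CPM (0.21 ± 0.18) and was higher on 7 of 8. For *Canx*, Cnmd-side cells of plate 5 stood apart at 1459 CPM, and without that plate it passed the test (0.46, adjusted p = 0.0177, edgeR). *Ddit3* had 276 ± 150 and 291 ± 245 CPM, a log2 fold change of -0.16 ± 0.43. Osteoblast markers were at 43935 and 66048 CPM in the articular-side sums of plates 5 and 7 and at 21483 CPM in the Cnmd-side sum of plate 9, against at most 6089 CPM in other *Grem1*-lineage sums. With the 24 articular-side and 32 Cnmd-side cells rich in osteoblast or blood genes left out, *Dnajc3* was again the member called (0.66, adjusted p = 0.00164, edgeR).

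Beyond the cell groups, the stress factors differed among *Grem1*-lineage plates. *Ddit3* was at 101, 136 and 171 CPM on plates 1, 2 and 4 and at 295, 425, 269, 387 and 638 CPM on plates 5 to 9. *Atf4* had the same 3 plates lowest, at 369, 300.5 and 454 CPM, against 509 to 663 CPM on the others. In contrast, *Dnajb11* was highest there, at 315, 265 and 290.1 CPM, against 157 to 251 CPM. No label sets these plates apart, and these values are a description without a test. The 9 early response genes summed to 15941 to 21945 CPM in the Cnmd-side cells of plates 1, 2 and 4 and to 32522 to 41963 CPM in those of plates 5 to 9. In articular-side cells the plate sets overlapped, at 18805, 22022 and 30908 CPM on plates 1, 2 and 4. There plates 5 to 9 were at 25480 to 34700 CPM. The part of these genes in the levels of *Atf4* and *Ddit3* was not tested. On plate 9, a single Cnmd-side cell held 21 of the 214 Cnmd-side *Ddit3* UMIs. Within plates 1, 2 and 4 alone, *Atf4* passed the test between the cell groups (0.99, adjusted p = 0.0247, edgeR), with Cnmd-side levels of 195, 207 and 336 CPM against 577, 411 and 512 CPM, and *Dnajc3* did not (0.47, adjusted p = 0.172).

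**Figure D3:**
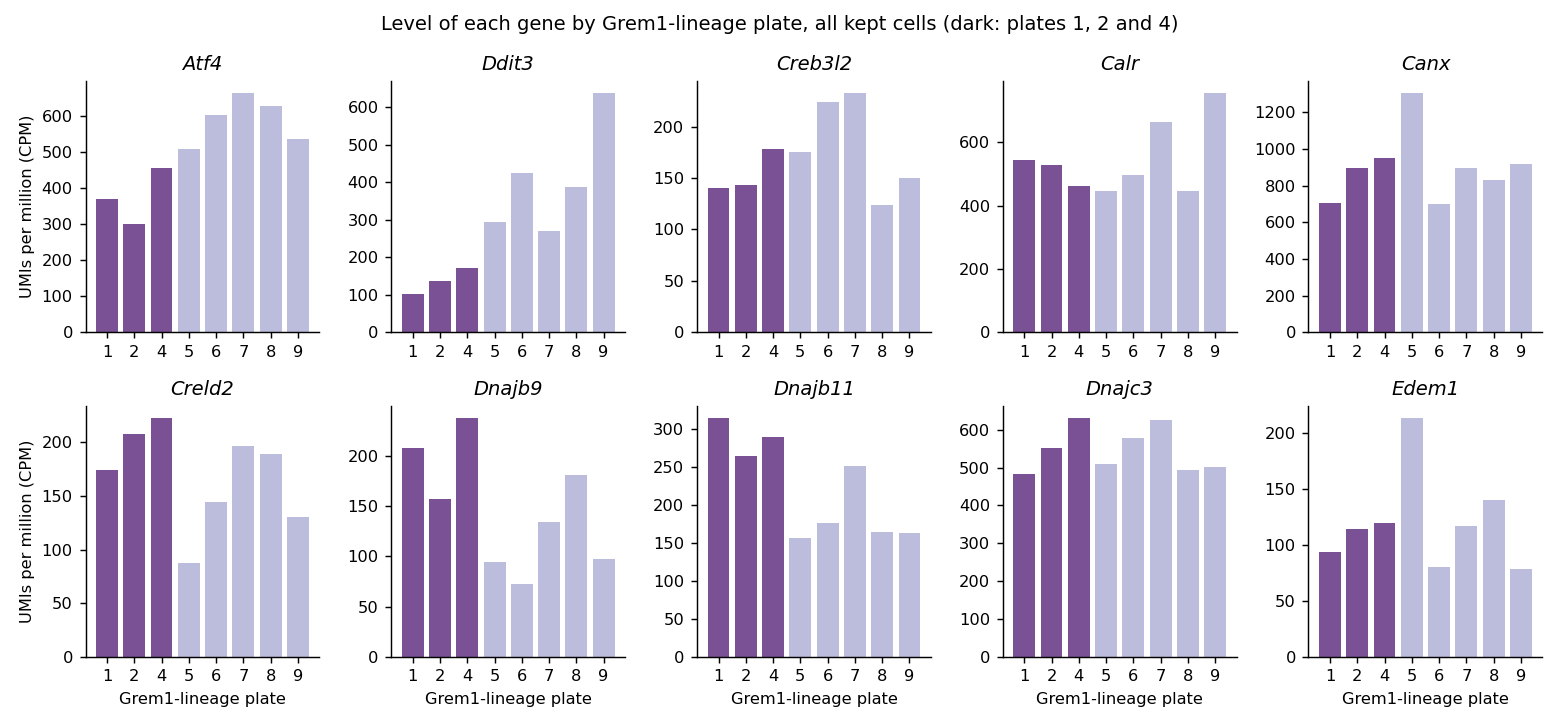
Level of each gene in CPM (vertical axes, each from 0) on the 8 *Grem1*-lineage plates (horizontal axes), from all kept cells of a plate. Each bar is 1 plate without an error, and dark bars mark plates 1, 2 and 4, where *Ddit3* lay at 101 to 171 CPM and *Dnajb11* at 265 to 315 CPM.

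Set beside both cell groups in 1 fit of 3 groups, *Lepr*-lineage plates were lower than articular-side cells for *Creb3l2* (-2.27 ± 0.56), *Dnajb9* (-1.91 ± 0.57), *Dnajc3* (-1.44 ± 0.30) and *Atf4* (-1.10 ± 0.38), 4 of 10 members against 37.3% of the 2010 genes tested, 18.8% of them lower. Against Cnmd-side cells, *Creb3l2* (-1.74 ± 0.57) and *Dnajc3* (-0.89 ± 0.30) were lower, 2 of 10 members against 33.9% of genes, 17.5% of them lower. Both contrasts use the same *Lepr*-lineage plates. *Creb3l2* and *Dnajb9* passed the filter on low counts of this fit through *Grem1*-lineage sums alone, so they could only be called lower. Against articular-side cells, *Dnajc3* (adjusted p = 0.0488) and *Creld2* (-2.34, adjusted p = 0.0255, edgeR) passed without *Lepr*-lineage plate 2, and *Creb3l2* and *Dnajc3* without plate 1. Against Cnmd-side cells no member passed at an adjusted p under 0.05 without plate 2, with *Dnajc3* at -0.34. Without plate 1, *Dnajc3* was lower there and *Creld2* higher (1.53, adjusted p = 0.0127, edgeR), and without *Grem1*-lineage plate 1, 4 members were lower, *Atf4* and *Ddit3* in addition. With totals alone in place of TMM, *Creb3l2* and *Dnajc3* were lower than in articular-side cells, *Atf4* (adjusted p = 0.202) and *Dnajb9* (adjusted p = 0.0786) were not called, and *Calr* (0.88, adjusted p = 0.0198) and *Edem1* (1.23, adjusted p = 0.042, edgeR) passed as higher in *Lepr*-lineage cells. No member passed against Cnmd-side cells by that scaling. *Dnajc3* thus had its levels in the order articular-side (609.9 to 739.9 CPM), Cnmd-side (369.5 to 600.4) and *Lepr*-lineage (333 and 104). Each step passed the test with TMM scaling, the filter on low counts, all kept cells and both *Lepr*-lineage plates. The step from Cnmd-side to *Lepr*-lineage cells did not pass without that filter (adjusted p = 0.0907, edgeR). Nor did it pass without the *Lepr*-lineage cell led by *Mpo* and *Elane* (-0.74, adjusted p = 0.0502, edgeR). *Creb3l2* followed that order, but its articular-side and Cnmd-side levels did not differ beyond their spread. *Dnajb9* had 121 to 403, 46.7 to 152 and 47.6 and 51.8 CPM, and its Cnmd-side and *Lepr*-lineage levels did not pass the test (-0.80 ± 0.59, adjusted p = 0.324, edgeR). For *Atf4* the Cnmd-side and *Lepr*-lineage levels were also not separated (-0.80 ± 0.38, adjusted p = 0.107). *Ddit3* was lowest in *Lepr*-lineage cells but passed neither contrast (adjusted p = 0.0774 and 0.0556, edgeR). *Calr*, *Canx*, *Creld2*, *Dnajb11* and *Edem1* had no pair of neighbouring groups that passed with all plates and TMM.

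A further comparison asked whether the folding genes follow the output of matrix. Within each plate and cell group, cells were divided at the median of their *Col2a1* and *Acan* share, and the UMIs of cells above and not above it were summed, without those 2 genes. The median share was 3.39% in higher-matrix and 1.27% in lower-matrix cells, with a median of 1476 and 1472 UMIs per cell. Within the cell groups depth ran in opposite directions, with 1144 and 1282.5 UMIs in articular-side and 2575 and 1957 UMIs in Cnmd-side cells. None of the 9 members tested passed, and none had an unadjusted p under 0.05 (edgeR). DESeq2 called none either. Among all 1043 genes, 1.82% (19 genes) were called and 8.05% had an unadjusted p under 0.05. With the plate as a block 49 genes were called, again without a member. *Calr* was at 594 ± 105 CPM in higher-matrix and 499 ± 178 CPM in lower-matrix cells (SD, n = 8 plates, 0.24 ± 0.19) and was higher on 6 of 8 plates. *Ddit3* was at 253 ± 122 and 366 ± 319.6 CPM (-0.53 ± 0.41), with plate 9 at 248 and 1086 CPM, and without that plate its log2 fold change was -0.026. The remaining log2 fold changes lay between -0.18 and 0.18, with *Dnajc3* at -0.041, or at -0.43 (adjusted p = 0.395, edgeR) when cells were thinned to 1 depth. The SE of the 9 members, 0.13 to 0.41, limits what could be seen. It comes from the fit without a plate block, so it depends on that fit as well as on depth. The difference between higher-matrix and lower-matrix cells did not differ between the cell groups for any of the 6 members tested (interaction term, adjusted p of at least 0.939, edgeR), and 0.284% of 703 genes (2 genes, or 6 with the plate as a block) passed that test.

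Cell by cell the picture was the same. Spearman's rho between each gene's share of UMIs and the matrix share, taken within each plate and cell group, had medians over 8 plates from -0.11 for *Edem1* in articular-side cells to 0.13 for *Creld2* and *Atf4* in Cnmd-side cells. Single plates ranged from -0.41 to 0.38. No gene had the same sign on 8 of 8 plates in either cell group, and the highest count of positive plates was 6 of 8, for *Creb3l2* in articular-side and *Creld2* in Cnmd-side cells. These rho values are descriptions over sparse counts in cells that share a plate, in which the UMI total enters both measures.

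**Figure D4:**
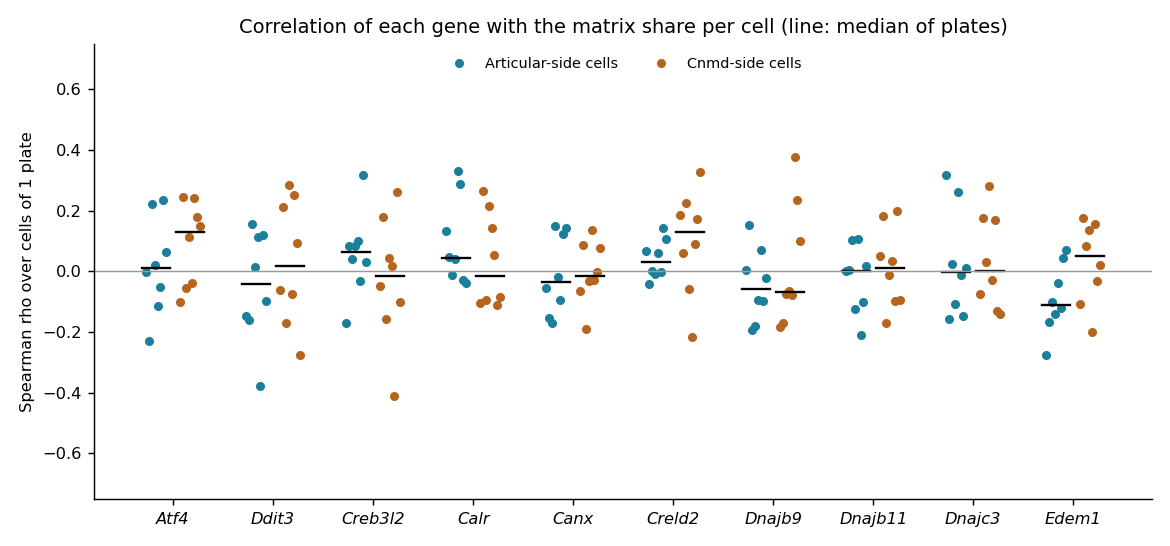
Spearman's rho (vertical axis) between each gene's level and the *Col2a1* and *Acan* share over the cells of 1 plate. Points are the 8 plates in articular-side and Cnmd-side cells and lines are medians, all of which lie between -0.11 and 0.13.

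How the members vary together was described over the 16 sums of 8 plates and 2 cell groups, after removal of group means, among the 8 members above the filter. The pairs with the highest Pearson r of log2 CPM were *Creb3l2* and *Dnajc3* (0.64), *Atf4* and *Ddit3* (0.60), and *Creld2* and *Dnajb11* (0.53). The lowest were *Ddit3* with *Dnajb11* (-0.53) and with *Creld2* (-0.52). The median over 28 pairs was 0.10, and over all 566580 pairs of tested genes 0.0054. The points share plates and depth. Without removal of group means, the genes most like *Dnajc3* were *Bmp2* (r = 0.93) and *Cdon* (0.91), those most like *Atf4* were *Gm5644* (0.90) and *Ctdspl* (0.89), and those most like *Ddit3* were *Dhx58os* (0.81) and *Fosl2* (0.80). *Dnajb11* was closest to *Gabarap* (0.80) and *Anxa5* (0.80), *Creld2* to *Gm10925* (0.81) and *Gm13341* (0.71), *Creb3l2* to *Gm29521* (0.76) and *Asxl2* (0.76), *Canx* to *Ddrgk1* (0.70) and *Egr2* (0.63), and *Calr* to *Atpif1* (0.68) and *Clic4* (0.65). Each was picked as the highest r among all other tested genes, which over 16 sums can give a high r by itself. No background for such picks was computed, and these r values also hold the differences between the cell groups.

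A wider list of 60 genes of the same pathway, with sensors and factors, chaperones and folding enzymes, and degradation genes, was read from the same fits. Between lineages, 42 of the 60 were tested, 14 were lower and 1 higher in *Lepr*-lineage cells, beside 16.8% lower and 12.2% higher of all genes tested, and the median log2 fold change was -0.81 against -0.11 over all genes. *Colgalt2*, which adds sugars to collagen, had 351 UMIs in *Grem1*-lineage cells and 0 in *Lepr*-lineage cells, at least 12.3-fold lower against a floor of 3 UMIs over both plates. The sensor *Atf6* had 56 and 0 UMIs, at least 1.96-fold lower by the same floor. *Colgalt2* and *Atf6* passed the filter on low counts through *Grem1*-lineage plates alone, so they could only be called lower. Both are counted among the 14. *Atf3*, a factor downstream of ATF4 that is also in the early response list, was at 1225 ± 466 CPM (SD, n = 8) and 63.0 ± 89.0 CPM (n = 2, log2 fold change -4.14). The translation repressor *Eif4ebp1* was higher in *Lepr*-lineage cells, at 567 ± 138 against 169 ± 79.3 CPM (1.82).

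Between the cell groups, 25 of the 60 were tested, and 3 were higher and 3 lower in articular-side cells, beside 41.5% of all genes called in that fit. The prolyl isomerases moved both ways: *Fkbp7* was higher (0.90 ± 0.23), while *Fkbp9* (-0.92 ± 0.13) and *Fkbp10* (-0.75 ± 0.18) were lower, as was *Crtap* (-0.73 ± 0.26), a partner in collagen prolyl hydroxylation. *Cebpb*, a stress and differentiation factor, was at 2320 ± 414 against 663 ± 299 CPM (1.77 ± 0.24), and *Derl1*, of the degradation channel, at 260 ± 74.1 against 136 ± 53.8 CPM (0.88 ± 0.24). *Fkbp9* was also the gene of the list that was higher in higher-matrix cells, 1 of 25 tested beside 1.82% of all genes, at 806 ± 155 against 513 ± 125 CPM (0.64 ± 0.16, adjusted p = 0.0494, edgeR). *Lepr*-lineage cells against articular-side cells gave 12 lower genes and 1 higher gene among 32 tested, beside 37.3% of all genes called, 18.8% as lower. The lower genes were led by *Atf3* (-3.51) and *Fkbp14* (-2.63) beside *Colgalt2*, with *Eif4ebp1* higher (2.11). Against Cnmd-side cells 13 were lower and 2 higher, beside 33.9% of all genes called, 17.5% as lower. The lower genes there were led by *Atf3* (-4.21) and *Fkbp11* (-2.76) beside *Colgalt2*, with *Eif4ebp1* (1.90) and *Fkbp7* (1.07) higher.

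Another 22 genes of the pathway could be read in *Lepr*-lineage cells only, over the 50508 genes listed there. All 22 have names from H to X, while genes named here for *Grem1*-lineage cells begin with a digit or A to G. The *Grem1*-lineage list ends in an incomplete row, so absence from it says nothing about expression in those cells. *Hspa5*, which encodes BiP, had 117 and 141 UMIs on the 2 plates and was detected in 102 of 160 cells. The collagen chaperone *Serpinh1* had 61 and 115 UMIs, and the disulphide isomerases *Pdia6* and *Pdia4* had 40 and 83 and 7 and 35 UMIs, with more on plate 2 as for *Creld2*, *Calr* and *Canx*. *Hsp90b1* had 56 and 20 UMIs, more on plate 1 as for *Dnajc3*. *Xbp1*, the transcript that IRE1 splices, had 20 and 30 UMIs. *Trib3*, a target of ATF4 and CHOP, had 0 UMIs in the 160 cells, which allows a share of cells with a UMI of up to 1.88%.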

How the data were processed

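Single-cell UMI counts per gene were used as deposited. Per the authors' methods, wells were barcoded, cDNA was amplified and libraries (Nextera XT) were sequenced on a NextSeq 500, and the submitters' processing notes name mm10, STAR, featureCounts, SAMtools and UMI-tools, so that the counts are of distinct molecules per gene. Whether strand was used in counting is not given in the sources used here. The *Grem1*-lineage table was left without 1 incomplete last row, after which 29183 genes were listed in both tables. Whether that table was cut short is not known. Genes listed for *Lepr*-lineage cells alone hold the rest of their UMIs, as the shared genes took 40.9% of these, so levels in CPM are relative to the shared genes.

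UMIs were summed per plate, or per plate and cell group, and tested with edgeR 4.0.16 (R 4.3.3; TMM scaling, default filter on low counts, quasi-likelihood test, Benjamini-Hochberg adjustment over all genes tested, threshold 0.05), after checks on simulated data. TMM was computed separately for each comparison, so that levels of a gene differ slightly between comparisons. SE was the size of the log2 fold change over the square root of F. The plates are the replicates. The labels do not tie plates to animals and cells were pooled, so p-values measure the spread between plates, which may be technical. Sums of the same plate deviated together (mean Pearson r 0.301 for cell groups, 0.185 to 0.454 over 8 plates, and 0.405 for higher-matrix and lower-matrix cells, 0.299 to 0.523), so these comparisons are paired by plate, and the fit with a plate block was run beside that without it. Lineage plates share only a number.

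The 10 members, the pathway and marker lists and the rule for named genes (all members, the 3 pathway genes per direction with the largest change among those past the threshold, and for each member the 2 genes of most similar level over plate and cell group sums) were chosen with earlier results of these data known. Alternatives were DESeq2 1.42.0, its size factors, no filter on low counts, plates left out, other minimums of detected genes, depth thinning, the 20 most abundant genes left out, and other cuts of the matrix share. Totals alone in place of TMM, the removal of cells with over 1% of UMIs in osteoblast or blood markers, the removal of the deepest *Lepr*-lineage cell and the contrast from the fit of 3 groups were added after the data were seen. Figures used matplotlib 3.10.9, and tables pandas 2.3.3, numpy 2.4.6 and scipy 1.17.1.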

Additional observations from a re-analysis of the deposited data

Results flagged for a closer look

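Among the 33 groups of 8 plates examined, 3 held a plate far from the others by Dixon's criterion, which chance alone gives in about 1 in 20 groups. *Canx* was at 1306 CPM on *Grem1*-lineage plate 5, with the next plate at 952 CPM, and in Cnmd-side cells it was at 1459 CPM on the same plate, with the next at 837 CPM. *Edem1* was at 214 CPM on *Grem1*-lineage plate 5, with the next plate at 140 CPM. A single plate 5 cell held 30 *Canx* UMIs. The cause was not tested.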

How the results depend on the processing

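The member counts of the lineage (5) and cell group (1) comparisons changed with scaling, with the plates used and with the cells kept, and the cause was not tested. The 2 *Lepr*-lineage plates together held 6 to 113 UMIs per member, which limits what could be seen between lineages. The 5 calls rest on 6 to 38 UMIs per member there. With totals alone, 1 member passed between lineages and 0 between cell groups and for *Lepr*-lineage against Cnmd-side cells. *Canx* and *Dnajb11* turned to 0.24 and 0.35 between lineages and 0.31 and 0.27 against articular-side cells, *Canx* to 0.21 against Cnmd-side cells, *Calr* and *Canx* to -0.26 and -0.12 between cell groups, and *Atf4*, *Dnajb11* and *Dnajc3* to 0.043, 0.032 and 0.018 by matrix share.

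Without cells rich in osteoblast or blood genes, 372 genes and 3 members passed between lineages, 325 genes against articular-side cells, and 277 genes and 1 member against Cnmd-side cells. Of the 3 members, *Creb3l2* had 0 *Lepr*-lineage UMIs there and could only be called lower. *Creld2* turned to -0.85 between lineages, -0.85 against articular-side and -0.25 against Cnmd-side cells, *Edem1* to -0.29 and -0.18 (lineages, Cnmd-side), *Dnajb11* to -2.22 (Cnmd-side), and by matrix share *Dnajb11* and *Atf4* to 0.021 and 0.034. Without the deepest *Lepr*-lineage cell, 1 member, *Creb3l2*, passed against Cnmd-side cells, and *Dnajc3* did not.

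With plates 1 and 2 of each lineage, 489 genes and 1 member (*Dnajb9*) passed with the replicate block (*Creld2* -0.17), and 451 genes and 2 members with no block. Plates of the same number share only that number (r = 0.0795 between their deviations). Between cell groups the plate block gave *Dnajc3* 0.61, and *Ddit3* 0.0083, and it changed no call of a member there. By matrix share it gave 49 genes, and in the interaction 6 genes, with *Canx* at -0.028.

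With plates 1, 2 and 4 alone, 2 members passed between lineages, 241 genes and 2 members between cell groups (*Ddit3* 0.90), and 1 gene by matrix share, with *Dnajc3*, *Dnajb11* and *Atf4* at 0.21, 0.13 and 0.023. With plates 5 to 9 alone, *Dnajb11* was at 0.13 between lineages. Without the filter on low counts 705 genes passed between cell groups and 48 by matrix share. *Calr* turned to -0.055 between lineages and -0.072 between cell groups, *Dnajb11* to -0.075 against Cnmd-side cells, and by matrix share *Dnajb11* and *Atf4* to 0.0099 and 0.033. With the gene minimum over shared genes *Calr* was at -0.091 between lineages, and with no minimum *Dnajb11* at 0.019 by matrix share. Thinning gave 177 genes between cell groups and 4 by matrix share (*Atf4* 0.084, *Dnajc3* -0.43), and the fit of 3 groups 2 members between cell groups.

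By matrix share, 11 genes passed without the 20 most abundant genes, 1 in articular-side cells alone (*Dnajc3* 0.032), 0 by *Acan* alone at adjusted p under 0.05 in edgeR (*Creb3l2* 0.12, *Ddit3* 0.21, *Creld2* -0.019), and 316 genes and 1 member with the median taken over both cell groups (*Dnajc3* -0.40, *Calr* -0.11). *Atf4* was at 0.021 in Cnmd-side cells alone, and by *Col2a1* alone *Atf4*, *Dnajc3* and *Creb3l2* were at 0.078, 0.053 and 0.23.

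Leaving out 1 plate at a time gave 529 to 850 genes and 2 to 5 members between lineages, 1 to 3 members between cell groups, 488 to 733 genes and 2 to 5 members against articular-side cells, 450 to 676 genes and 0 to 4 members against Cnmd-side cells, and 10 to 19 genes by matrix share. Between lineages the ranges were -1.12 to 0.063 for *Canx*, -0.50 to 0.65 for *Edem1*, -0.71 to 0.60 for *Calr*, -2.22 to 1.10 for *Creld2* and -2.49 to -0.73 for *Dnajc3*. Against articular-side cells they were -1.08 to 0.18 for *Canx*, -0.024 to 1.05 for *Edem1*, -0.60 to 0.78 for *Calr* and -2.34 to 1.03 for *Creld2*, and against Cnmd-side cells -0.89 to 0.36, -0.45 to 0.63, -0.55 to 0.83 and -1.84 to 1.53 for the same genes and -0.015 to 0.23 for *Dnajb11*. *Ddit3* ran from -0.35 to 0.18 between cell groups. By matrix share the ranges were -0.27 to 0.11 for *Creb3l2*, -0.099 to 0.077 for *Dnajb11*, -0.060 to 0.072 for *Atf4*, -0.087 to 0.0054 for *Dnajc3* and -0.010 to 0.33 for *Creld2*, and *Ddit3* ran from -0.75 to -0.026. Between cell groups the member counts without plates 4, 5, 6 and 9 were 2, 3, 2 and 2. *Dnajc3* was called between cell groups in 19 of 22 alternatives.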

Other observations

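*Sec61a1*, a subunit of the channel through which proteins enter the ER, was noted after its values were seen. It was second by UMIs among the 17474 genes with a UMI in *Lepr*-lineage cells, with 6924 UMIs, and was detected in 160 of 160 cells. It was not among the genes listed for *Grem1*-lineage cells as used here, which says nothing about its level in them.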
